A study of Saccharomyces cerevisiae with 6 samples.

Results

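The yeast nuclear genome carries 275 tRNA genes in the R64 annotation. Their association with nuclear pore complexes (NPCs) after heat shock was examined in 2 lists of Nic96 ChIP-seq peaks. All nuclear genes that the annotation types as tRNA genes were taken, 275 of 6413 nuclear genes, without use of the peak data. The 24 tRNA genes of the mitochondrial genome were left out. Nic96 is a scaffold nucleoporin of the NPC. A gene under a Nic96 peak is called bound below, which does not by itself establish a contact with NPCs. The authors describe a bias of ChIP towards highly transcribed regions, and whether it added to the signal at tRNA genes was not tested. The strains were BY4742, an S288C derivative, of genotype MATalpha his3delta1 leu2delta0 lys2delta0 ura3delta0, and all carried the plasmid pRS313. In the *wt* comparison, a strain with NIC96 fused to 13 myc epitopes (Nic96-13myc-KanMX) was set against the untagged strain. In the *tho* comparison, both strains also lacked *MFT1*, which encodes a subunit of the THO complex, a factor of mRNP assembly. That deletion was mft1::NatMX in the tagged strain and mft1::KanMX in its untagged control. Cells growing exponentially at 25 °C were brought to 37 °C for 15 min, then fixed, and chromatin was immunoprecipitated with an anti-Myc antibody. Of the 6 libraries of the series, 1 for each condition, the *wt* and *tho* tagged libraries at 37 °C have a peak list that was used here. The 25 °C libraries were not analysed here, so that nothing below separates heat shock from growth at 25 °C.

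Transfer RNA genes are short and are transcribed by RNA polymerase III from a promoter that lies inside the gene. TFIIIC binds the internal box A and box B, places TFIIIB upstream of the start, and TFIIIB in turn recruits the polymerase. The transcripts are trimmed, freed of introns where they have one, modified, and exported to the cytoplasm through NPCs, and in budding yeast tRNA genes themselves have been seen at NPCs in mitosis. Most tRNAs are encoded by several gene copies scattered over the chromosomes. Among the 275 genes, 56 different mature sequences were present, and 35 of them were carried by more than 1 gene. The genes were 71 to 133 bp long, with a median of 73 bp, and 60 had an intron.

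The sequences of 7 genes are shown because the results below turn on them: a pair of near-identical tRNA-Pro genes beside heat shock genes, the tRNA-Ser genes of highest enrichment in *wt*, the tRNA-Thr gene that borders the silent mating-type cassette *HMR*, the single-copy tRNA-Ser gene *SUP61*, and the initiator tRNA-Met gene *IMT3*. They are read 5′ to 3′ on the strand of the gene from the R64 (sacCer3) genome, with introns, and capitals mark matches to box A (TGGCNNAG) and box B (GTTCNANNC).
TRN1, tRNA-Pro (chrI:139152-139254, + strand): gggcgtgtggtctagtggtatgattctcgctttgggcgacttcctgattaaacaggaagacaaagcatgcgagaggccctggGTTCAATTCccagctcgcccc
YNCL0001W, tRNA-Pro (chrXII:92548-92650, + strand): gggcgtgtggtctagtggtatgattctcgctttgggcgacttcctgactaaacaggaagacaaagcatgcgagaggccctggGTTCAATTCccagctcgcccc
YNCF0009C, tRNA-Ser (chrVI:191513-191613, - strand): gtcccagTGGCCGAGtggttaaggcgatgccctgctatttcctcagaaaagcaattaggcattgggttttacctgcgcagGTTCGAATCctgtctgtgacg
YNCL0039W, tRNA-Ser (chrXII:784354-784453, + strand): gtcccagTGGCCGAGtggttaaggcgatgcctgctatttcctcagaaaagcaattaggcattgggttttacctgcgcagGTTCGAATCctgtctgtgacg
YNCC0014W, tRNA-Thr (chrIII:295484-295556, + strand): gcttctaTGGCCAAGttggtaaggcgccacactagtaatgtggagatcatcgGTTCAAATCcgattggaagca
SUP61, tRNA-Ser (chrIII:227942-228042, + strand): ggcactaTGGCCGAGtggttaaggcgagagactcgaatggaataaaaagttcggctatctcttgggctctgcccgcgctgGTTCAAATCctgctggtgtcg
IMT3, tRNA-Met (chrX:517813-517884, - strand): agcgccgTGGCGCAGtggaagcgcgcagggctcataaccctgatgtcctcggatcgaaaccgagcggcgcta

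The 8 letters of box A were found on the gene's strand in 100 of the 275 genes. A first, stricter form of box B, GTTCGANTC, was found in 111 genes, and the wider form GTTCNANNC, chosen after that count had been seen, in 270. The 5 genes without the wider form were the 5 identical initiator tRNA-Met genes, *IMT1* to *IMT4* and YNCC0008W. These matches describe letters only. The stricter box B is a case of the wider one, all letters were searched on the gene's strand only, and a match does not show that a factor was bound.

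After heat shock, 30 of the 275 tRNA genes (10.9%) were overlapped by a Nic96 peak in *wt* and 46 (16.7%) in *tho*. A gene was counted when a peak with a q-value under 0.05 overlapped it by at least 1 bp. The 30 *wt* genes lay under 28 peaks and the 46 *tho* genes under 45, because neighbouring genes shared a peak: YNCB0004W and YNCB0005C, and YNCG0028W and YNCG0029C, in *wt*, and YNCJ0013C and YNCJ0014C in *tho*. By the same rule, 12.9% of all nuclear genes were overlapped in *wt* and 7.8% in *tho*. This background favours long genes, since the median protein-coding gene, at 1200 bp, is a far larger target than a tRNA gene. The midpoint of the gene was therefore also used, which gives each gene a target of 1 base. Midpoints lay inside a *wt* peak for 30 tRNA genes (10.9%, exact 95% binomial interval 7.48 to 15.2) against 4.83% of all nuclear genes. Inside a *tho* peak, they were 45 (16.4%, interval 12.2 to 21.3) against 3.48% of all nuclear genes. The intervals cover the counting of genes only. With 1 library per condition, no test compares *wt* with *tho*, and every difference between the lists has no replicate check.

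**Figure D1:**
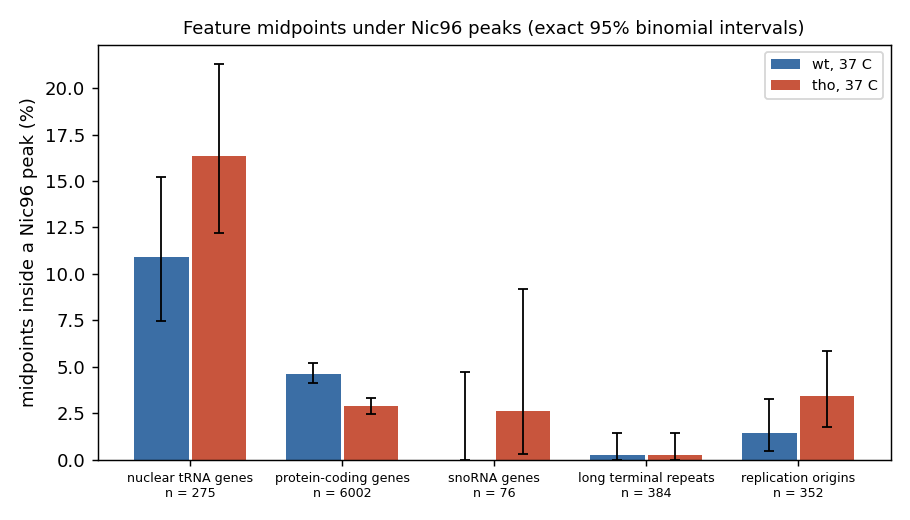
Share of features with their midpoint inside a Nic96 peak (y axis, %) for 5 classes of nuclear features (x axis) in *wt* and *tho* at 37 °C; bars are shares and whiskers exact 95% binomial intervals. Nuclear tRNA genes stand at 10.9% and 16.4%, and each of the other classes lies below 5%.

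Other classes of features had their midpoint under a peak less often. Protein-coding genes did so for 278 of 6002 in *wt* (4.63%, interval 4.11 to 5.19) and for 173 in *tho* (2.88%, interval 2.47 to 3.34). The small nucleolar RNA genes, also short and non-coding but transcribed by RNA polymerase II except for *SNR52*, did so for 0 of 76 in *wt*, which allows a share of up to 4.74%, and for 2 in *tho* (2.63%). Long terminal repeats of Ty elements, which cluster upstream of tRNA genes, did so for 1 of 384 in each list (0.26%). They are themselves repeated sequence, and whether unassigned reads lowered this share was not measured. Replication origins did so for 5 of 352 in *wt* (1.42%) and 12 in *tho* (3.41%). In each list the interval of the tRNA genes lay above those of the other 4 classes. Peaks covered 3.85% of the nuclear genome in *wt* and 3.36% in *tho*.

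Most peaks at tRNA genes had their summit inside the genes themselves. In *wt*, 26 of the 28 peaks had their summit, the base of highest signal, inside a tRNA gene (92.9%, exact 95% interval 76.5 to 99.1) and all 28 had it within 100 bp of one. In *tho* the summit was inside a tRNA gene in 39 of 45 peaks (86.7%, interval 73.2 to 94.9) and within 100 bp in 42 (93.3%, interval 81.7 to 98.6). Where the summit was inside the gene, it lay at base 43.5 of the gene at the median in *wt* (range 19 to 72) and at base 52 in *tho* (range 14 to 88). No *wt* peak and 3 of the *tho* peaks had the summit in a protein-coding gene. Among the other nuclear peaks, 93.0% of 965 in *wt* and 58.4% of 526 in *tho* had the summit in a protein-coding gene. The share of tRNA genes under a peak fell off on both sides of the gene. The share of genes under a *wt* peak was 10.9% at base 50 from the gene start, 0.36% at 500 bp upstream and 1.45% at 500 bp downstream. In *tho* these shares were 16.4%, 1.45% and 2.55%.

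**Figure D2:**
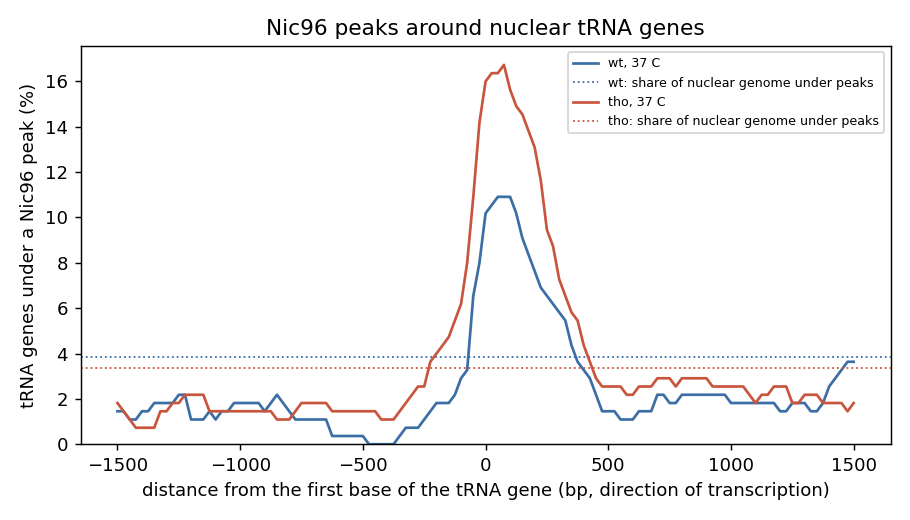
Share of the 275 nuclear tRNA genes under a Nic96 peak (y axis, %) by distance from the first base of the gene in the direction of transcription (x axis, bp, steps of 25 bp) for *wt* and *tho* at 37 °C; dotted lines give the share of the nuclear genome under peaks. Both curves are highest between 50 and 100 bp, at 10.9% and 16.7%, and fall more slowly downstream than upstream.

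The peaks reached farther past the 3′ end of the gene than before its 5′ end. Over peaks of at most 1000 bp, the median reach was 54 bp upstream and 233 bp downstream for 29 genes in *wt*, and 63 and 178 bp for 41 genes in *tho*. The peak reached farther downstream for 22 of the 29 genes (75.9%) and for 31 of the 41 (75.6%). Genes on both strands of the chromosome showed it, at 13 of 17 and 9 of 12 in *wt* and 18 of 24 and 13 of 17 in *tho*. Repeated sequence, measured as the share of 75-base words that occur again in the genome, was low on both sides for most bound genes. Its median over the 300 bp upstream was 0.53% in *wt* and 0.80% in *tho*, and over the 300 bp downstream 1.34% and 0.94%. It exceeded 50% upstream for 4 of 30 genes in *wt* and 5 of 46 in *tho*, and downstream for 0 in either list. Where the nearest long terminal repeat was over 1000 bp away, the peak reached farther downstream for 5 of 9 genes in *wt* and 11 of 17 in *tho*. Where it was nearer, the counts were 17 of 20 and 20 of 24. The median reach upstream and downstream was 69 and 130 bp for the far and 47 and 258 bp for the near genes in *wt*. In *tho* it was 50 and 186 bp for the far and 72 and 166.5 bp for the near genes. In both lists the share of genes with the longer downstream reach was larger near a long terminal repeat, while the medians were more uneven near one only in *wt*. The part of repeated sequence in the uneven reach was not tested.

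Fold enrichment, the ratio of tagged to untagged signal at the summit, was higher at tRNA genes than at other peaks of the same list, most plainly in *wt*. The 28 *wt* peaks had a median of 2.34 (quartiles 1.96 and 2.70) against 1.76 (1.64 and 1.91) for the other 965 nuclear peaks. They made up 2.82% of the nuclear *wt* peaks but 5 of the 10 and 10 of the 20 of highest fold enrichment. Among the 45 *tho* peaks the median was 2.29 (1.96 and 2.64) against 1.88 (1.65 and 2.32) for the other 526. They made up 7.88% of the nuclear *tho* peaks, 1 of the 10 and 3 of the 20 of highest fold enrichment, since many *tho* peaks elsewhere were as high. The 3 were the peaks at *TRN1*, YNCI0002W and YNCJ0023C. The peak at *TRN1* also covered *SSA1*, and the summits of those at YNCI0002W and YNCJ0023C lay in the protein-coding genes *XBP1* and *SSC1*. Widths were like those of other peaks in *wt*, with medians of 385 bp in each set, and somewhat smaller in *tho*, at 397 against 453 bp. No test was made of these differences within a list, because its peaks come from 1 library. A number given below for a gene, without a unit, is the fold enrichment of its peak, and no replicate gives it an error.

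**Figure D3:**
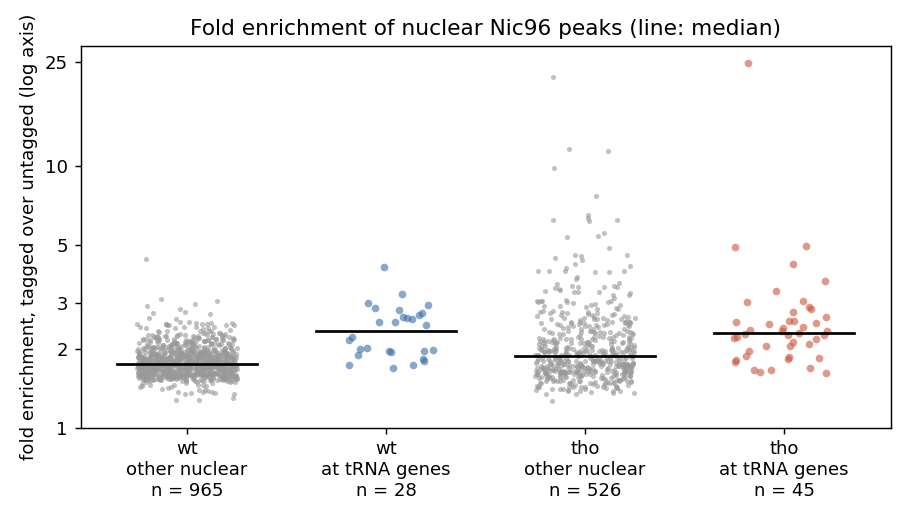
Fold enrichment of each nuclear Nic96 peak (y axis, log scale) for peaks at tRNA genes (28 in *wt*, 45 in *tho*) and for the other nuclear peaks (965 and 526); points are peaks and lines medians. The medians at tRNA genes are 2.34 and 2.29, those of the other peaks 1.76 and 1.88, and the highest *tho* point, at 24.8, is the peak at *TRN1*.

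The tRNA genes under a peak in both lists numbered 16, which is 53.3% of the *wt* genes and 34.8% of the *tho* genes. A further 14 held a peak in *wt* only and 30 in *tho* only, and 215 in neither. For the 16 shared genes, the summits of the lists lay 11 bp apart at the median, and within 20 bp of each other for 11 genes. The largest distances were 4230 bp, at YNCJ0023C, and 174 bp, at YNCC0014W. Fold enrichment was larger in the *tho* list for 7 of the 16 genes and in the *wt* list for 9, but the 7 include YNCJ0023C, whose *tho* summit lies in *SSC1*. Each value is relative to its own untagged library. Apart from the genes described below, the shared genes were YNCC0005W (tRNA-Asn, 2.59 in *wt* and 2.64 in *tho*), the tRNA-Val genes YNCG0018C (2.21 and 2.05) and YNCG0002C (1.83 and 1.62), YNCP0009W (tRNA-Gly, 1.89 and 1.87) and YNCG0040C (tRNA-Leu, 1.74 and 1.61). Of peaks at tRNA genes, 57.1% in *wt* and 37.8% in *tho* were overlapped by a peak of the other list, against 15.2% and 23.8% of the other nuclear peaks. The 2 sets also differed in strength, with a median −log10 q-value of 8.95 against 2.46 in *wt* and 13.0 against 6.36 in *tho*. The shares were not matched for strength, so they do not show that recurrence is a trait of tRNA genes. None of the 14 genes bound in *wt* only lay under a weaker deposited *tho* peak, and none of the 30 bound in *tho* only under a weaker *wt* peak. The lists hold no value for a gene without a peak, so that how far such genes were below the threshold is unknown.

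**Figure D4:**
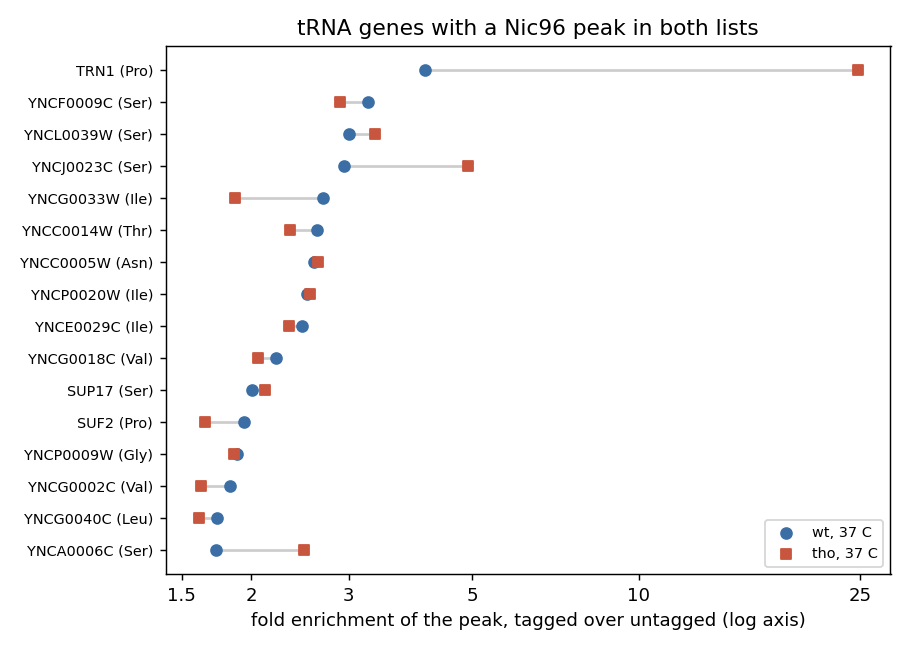
Fold enrichment of the Nic96 peak (x axis, log scale) at each of the 16 tRNA genes bound in both lists (y axis, amino acid in brackets), circles for *wt* and squares for *tho* at 37 °C. Values lie between 1.61 and 4.92 except for *TRN1* in *tho*, at 24.8.

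Among tRNA genes, the highest values in both lists belonged to *TRN1*, a tRNA-Pro gene with an intron that lies 248 bp past the 3′ end of *SSA1*, a heat-induced Hsp70 chaperone gene. In *wt* its peak was 2321 bp wide, reached a fold enrichment of 4.11 (−log10 q-value 33.7) and had rank 2 of 993. In *tho* the peak was 4227 bp wide, reached 24.8 (−log10 q-value 2304) and had rank 1 of the 571 nuclear peaks. Both peaks also covered *SSA1*, 96.7% of it in *wt* and all of it in *tho*, and the *tho* peak covered part of *ERP2*, which encodes a protein of vesicle transport. Yet both summits were inside *TRN1*, at base 47 and base 41, within its intron of bases 37 to 67. With a peak this wide over a gene that is strongly transcribed in heat shock, signal of the tRNA gene and of *SSA1* cannot be told apart beyond the position of the summit.

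A second tRNA-Pro gene, YNCL0001W, lies 1198 bp from its nearest protein-coding gene, *HSP104*, which encodes a disaggregase. Over their 103 bp it differs from *TRN1* at 1 base, in the intron (T48C, counted from the first base of the gene, *TRN1* base first). It had no *wt* peak. In *tho* it held a peak of 460 bp, enriched 4.23-fold (−log10 q-value 94.7, rank 24), and the summit was at base 69 of the gene. The family of identical mature tRNA-Pro sequence has 9 genes, of which *TRN1*, *SUF8* (2.64, *wt* only) and YNCL0001W held a peak and the other 6, among them *SUF7*, *SUF9* and *SUF11*, held none in either list. *TRN1* and YNCL0001W were the only tRNA genes whose nearest protein-coding gene was one of *SSA1*, *SSA2*, *SSA4*, *HSP104*, *HSP82*, *HSP26*, *HSP12*, *HSP60* and *UBI4*.

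Wide peaks covered 4 further tRNA genes in *tho*, and at 3 of them the summit lay in a neighbouring protein-coding gene. YNCJ0023C (tRNA-Ser) had a compact *wt* peak of 488 bp with a fold enrichment of 2.95 and the summit inside the gene. In *tho* it lay under a peak of 4930 bp with a fold enrichment of 4.92 whose summit was 4178 bp away in *SSC1*, the gene of a mitochondrial Hsp70, so that this value is not one of the tRNA gene. YNCI0002W (tRNA-Thr) lay under a *tho* peak of 2320 bp with a fold enrichment of 4.96, with the summit 402 bp away in *XBP1*, which encodes a stress-induced repressor. YNCL0037W (tRNA-Leu) was only partly covered, at 40.6% of its length, by a *tho* peak of 1175 bp (2.27) with its summit in YLR302C, beside *MET17* of methionine biosynthesis. At *SUF2* (tRNA-Pro), the *tho* peak of 1091 bp had its summit inside the gene and a low fold enrichment of 1.65, against 1.94 in *wt*. Without peaks over 1000 bp, 29 tRNA genes remained in *wt*, 41 in *tho* and 13 in both.

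Genes for tRNA-Ser made up 5 of the 16 genes bound in both lists. Of 19 such genes, 6 held a peak in *wt* (31.6%) and 8 in *tho* (42.1%), against 10.9% and 16.7% of all 275 tRNA genes. The 5 include YNCJ0023C, whose *tho* summit lies in *SSC1*. These counts are small, and the differences were not tested. The intron-containing genes YNCF0009C, on chromosome VI beside *FAB1*, and YNCL0039W, on chromosome XII beside *NMA1*, had compact peaks with the summit inside the gene in each list. YNCF0009C had fold enrichments of 3.25 in *wt* (rank 3 in that list) and 2.89 in *tho*. YNCL0039W had 3.0 in *wt* and 3.34 in *tho*. Their sequences, shown above, are 101 and 100 bp long, and YNCO0008W, which has the same mature sequence as YNCF0009C, had no peak. *SUP17*, of a family of 3 genes, had 2.0 in *wt* and 2.11 in *tho*, and its identical copies *SUP16* and *SUP19* had none. In the 10-gene family of YNCA0006C, 5 genes held a peak, YNCA0006C itself at 1.73 in *wt* and 2.49 in *tho*. *SUP61*, a gene of single copy, held a peak of 2.17 in *wt* only, with the summit at base 72.

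By amino acid, tRNA-Ser (9 of 19 genes, 47.4%), tRNA-Ile (7 of 15, 46.7%) and tRNA-Pro (5 of 12, 41.7%) had the largest shares bound in either list, against 60 of 275 (21.8%) overall. All 7 tRNA-His and all 6 tRNA-Trp genes were without a peak. Of the 20 amino acid types, 12 had a bound gene in *wt*, 17 in *tho* and 8 a gene bound in both. Types bound in *tho* but not in *wt* were Ala (3 of 16), Phe (2 of 10), Arg, Cys, Met and Tyr (1 gene each), and Gln was bound in *wt* only (1 of 10). The tRNA-Ile genes included 3 bound in both lists: YNCG0033W beside *ASN2* (2.69 in *wt*, 1.87 in *tho*), YNCP0020W beside *NOC4* (2.53 and 2.56) and YNCE0029C on chromosome V beside YER181C (2.47 and 2.34). The types with the largest shares and those without a peak were picked from the high and low ends. The counts are small, and the differences between types were not tested. Genes of identical sequence are not independent of each other in mapping.

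**Figure D5:**
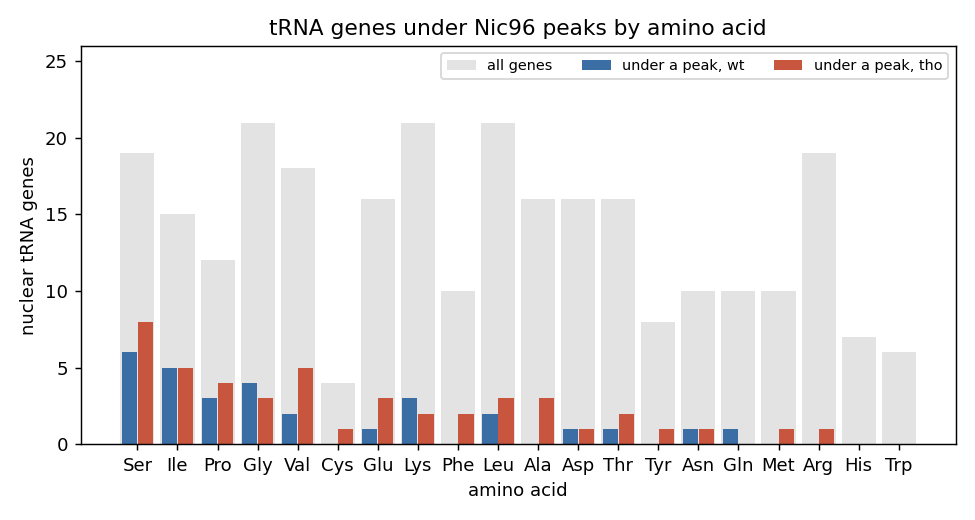
Number of nuclear tRNA genes (y axis) by amino acid (x axis), grey for all genes and coloured for those under a Nic96 peak in *wt* or *tho* at 37 °C, ordered by the share bound in either list. Serine, isoleucine and proline come first, with 9 of 19, 7 of 15 and 5 of 12 genes.

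Families of identical tRNA copies were mostly bound in part or not at all. Among the 24 mature sequences carried by 5 or more genes, 18 had some but not all of their genes under a peak in either list, 6 had none, and 0 had all. Over all tRNA genes, 60 of 275 (21.8%) were bound in either list. At that share a family of this size would seldom be bound in full, so these counts do not show that copies differ beyond it. A family bound in part is the initiator tRNA-Met, whose sequence is common to 5 genes. *IMT3*, on chromosome X beside *POL32*, held a *tho* peak of 314 bp, enriched 3.64-fold (−log10 q-value 50.2), with the summit at base 28, and the other 4 held none in either list. The *IMT3* peak, at positions 517685 to 517998, lies close to the wide *tho* peak over *SSC1*, at 519521 to 524450. Whether the 2 peaks are related was not tested. In the family of 16 tRNA-Gly genes 5 were bound, in that of 13 tRNA-Val genes 5, and in that of 15 tRNA-Asp genes 2. Only perfect matches were mapped by the authors, and reads that lie wholly within a repeated stretch cannot be assigned to 1 copy. Most of the 75-base words that overlap the gene occurred again in the nuclear genome for 8 of the 275 genes, of which the neighbours YNCJ0013C and YNCJ0014C held a *tho* peak (2.27). At the median, 7.56% of these words were repeated for genes bound in both lists and 5.44% for genes bound in neither.

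The tRNA-Thr gene YNCC0014W lies 1162 bp from *HMRA1* on chromosome III and is known as the barrier that stops silent chromatin from spreading out of *HMR*. It held a peak in both lists, with fold enrichments of 2.63 in *wt* and 2.35 in *tho* and −log10 q-values of 13.1 and 14.7. The summits were outside the gene, 22 bp past its 3′ end in *wt* and 80 bp before its 5′ end in *tho*. By chromosome, the share of tRNA genes bound in either list varied around the 21.8% found over all of them. On chromosome III 4 of 10 genes were bound in either list and on chromosome I 2 of 4, among them *TRN1*, against 1 of 21 on chromosome XIII and 3 of 28 on chromosome IV. These chromosomes were picked from the high and low ends, the counts are small, and the differences were not tested.

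Genes bound in 1 list only stood below *TRN1* in both lists. In *wt* only, YNCG0028W (tRNA-Leu, single copy) had 2.87, YNCL0040W (tRNA-Asp) 2.82 and YNCO0016W (tRNA-Lys) 2.74, with a median over the 14 genes of 2.09. In *tho* only, besides YNCL0001W and *IMT3* and besides YNCI0002W, whose value of 4.96 has its summit in *XBP1*, YNCK0019W (tRNA-Ala) had 3.03 and YNCL0033C (tRNA-Ile, single copy) 3.01, with a median over the 30 genes of 2.27. Over all genes bound in 1 list only, the values ran from 1.68 to 2.87 in *wt* and from 1.65 to 4.96 in *tho*. The medians over the 16 shared genes were 2.50 in *wt* and 2.35 in *tho*.

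Bound genes were also counted by structure and position. Of 60 genes with an intron, 16 (26.7%) were bound in either list, against 44 of 215 without (20.5%). The nearest protein-coding gene presented its 5′ side to 153 tRNA genes, of which 31 (20.3%) were bound, and its 3′ side to 117, of which 28 (23.9%) were bound. It was on the same strand for 145 genes (9.66% bound in *wt*, 17.9% in *tho*) and on the opposite strand for 130 (12.3% and 15.4%). The median distance to it was 456 bp for genes bound in both lists, 232 bp for *wt* only, 310 bp for *tho* only and 267 bp for genes bound in neither. The lists had opposite orders for the type of spacer. Between convergent, divergent and tandem protein-coding genes, of which there were 48, 89 and 133 cases, 16.7%, 11.2% and 9.02% of the tRNA genes were bound in *wt*, and 10.4%, 15.7% and 19.5% in *tho*. The order also differed for long terminal repeats. Genes with one within 200 bp were bound in 18 of 135 cases in *wt* (13.3%) against 12 of 140 for the others (8.57%), and in *tho* in 20 (14.8%) against 26 (18.6%). Whether the lists differ in these respects was not tested. A replication origin within 1000 bp went with a larger share, 13 of 36 (36.1%) against 47 of 239 (19.7%), in either list, and so did a protein-coding gene within 200 bp, 25 of 87 (28.7%) against 35 of 188 (18.6%). Genes with the box A letters were bound in 27 of 100 cases and those without in 33 of 175 (18.9%). Of the 111 genes with the strict box B letters, 10.8% were bound in *wt* and 19.8% in *tho*, against 11.0% and 14.6% of the 164 without. These splits were not tested, and several of them share genes.

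Genes whose products make, process or use tRNAs were read against the 12.9% of all nuclear genes overlapped in *wt* and the 7.8% in *tho*. None of 10 genes of RNA polymerase III subunits and none of 11 genes of tRNA processing and export, such as *LOS1*, the gene of a tRNA exportin, held a peak in either list. Of 10 genes of TFIIIB, TFIIIC and the repressor Maf1, *TFC3*, encoding the TFIIIC subunit that contacts box B, held a *wt* peak (2.34), which is 10% of the list, and none held a *tho* peak. Of 21 genes of cytosolic aminoacyl-tRNA synthetases, which load amino acids onto tRNAs, 4 held a *wt* peak (19.0%; *ILS1*, *VAS1*, *ALA1* and *CDC60*, at 1.69 to 1.76) and 1 a *tho* peak (4.76%; *ILS1*, 3.03, with a width of 1817 bp). Lists of 10 to 21 genes are too short to place these shares above or below the background. The other 10 genes transcribed by RNA polymerase III were also compared. *SCR1*, the RNA of the signal recognition particle, held a *wt* peak of 1.62 with the summit inside the gene. The 5S rRNA gene *RDN5-1* lay under a *wt* peak of 1.38 (−log10 q-value 79.2) with the summit inside the gene. *RDN5-2* was only partly covered by a *wt* peak of 1.27 (−log10 q-value 40.3), whose summit was 338 bp outside the gene. The 5S rRNA genes exist in several copies, and whether their reads could be assigned to 1 copy was not measured. None of the 10 held a *tho* peak, and *SNR6* (U6 snRNA), *RPR1* (RNase P RNA) and *SNR52* held none in either list.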

How the data were processed

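ChIP-seq peak lists of 2 of the 6 libraries, tagged *wt* and *tho* cells at 37 °C, were used, with 1 library per condition. Paired-end reads had been aligned to sacCer3 by the authors (Bowtie2, perfect matches only) and cleared of duplicates (SAMTools rmdup), and MACS2 narrow peaks had been called with the untagged strain of matching genotype at 37 °C as control. The deposited values are the fold enrichment (a ratio) at the summit, the −log10 of the p-value and of the q-value, and a score derived from the p-value. The depth of the libraries is unknown, since the files hold no read totals, and its effect on precision was not measured. The deposited lists reach beyond the q-value of 0.05 stated by the authors. That limit was applied, which left 993 nuclear *wt* peaks of 1248 and 571 nuclear *tho* peaks of 664, the 37 mitochondrial ones being left out.

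Genes, amino acids and introns came from the R64 annotation, with positions counted from 1. A gene under several peaks took the one of highest fold enrichment. Genes were grouped by identical spliced sequence. Shares have exact (Clopper-Pearson) binomial intervals at the 95% level, which cover counting only, and no p-value was computed. Genes were named if bound in both lists, among the 5 of highest fold enrichment in a list, under a peak over 1000 bp or beside 9 heat shock genes, and some others (*IMT3*, *SUP61*, copies of bound genes) were named after their values were seen. The members, lists and comparisons were chosen with earlier results of these data known. Counting was tested on simulated peaks. Python 3.11.15, numpy 2.4.6, scipy 1.17.1 and matplotlib 3.10.9 were used. The alternatives covered the q-value limit, the overlap rule, merging, peak width and repeated genes.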

Additional observations from a re-analysis of the deposited data

How the results depend on the processing

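The 7 main values, which are 3 counts of tRNA genes, 2 median fold enrichments and 2 shares of summits within 100 bp, were recomputed under 8 alternatives, 56 values in all. Counts stayed within 1.5 times the value reported, and medians and shares within their 95% intervals (1.96 to 2.64 for the *wt* median and 2.11 to 2.52 for the *tho* median), in 55 of them. The exception was the share of *tho* peaks with the summit within 100 bp, which was 100% when only peaks with the summit within 200 bp of a tRNA gene were taken, as that rule's own construction favours. The number of tRNA genes ranged from 29 to 30 in *wt*, from 41 to 47 in *tho* and from 13 to 16 in both. The lowest counts came without peaks over 1000 bp. Merging peaks within 200 bp of each other left the lists as they were, since the smallest gap between peaks was 228 bp in *wt* and 241 bp in *tho*. No paired analysis was possible because each condition had 1 library and no result comes from a test. Signal at genes without a peak, differences between *wt* and *tho* beyond library variation, and the effect of temperature are limits that these lists do not resolve.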
